A study of Homo sapiens with 2 samples.

Results

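Actins, thymosins and the small proteins that bind actin were described in SK-N-BE(2)-C-pIND-HRASV12 cells, a line of SK-N-BE(2)-C neuroblastoma cells carrying a doxycycline-inducible HRASV12 construct. SK-N-BE(2)-C is an established human neuroblastoma line of adrenergic character, and HRASV12 is a permanently active form of the small GTPase HRAS. The 10 genes, chosen by symbol from the gene annotation, were the actins ACTB, ACTG1 and ACTA2, the thymosins TMSB4X, TMSB10 and TMSB15A, the profilin PFN1, the cofilin CFL1 and the transgelins TAGLN and TAGLN2, out of 36027 genes in the table. The genes had been picked because several of them differed between the 2 libraries in these same data, so their ratios below are descriptions of chosen genes.

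The series held 2 single-cell 3' libraries of this line. One came from cells treated with doxycycline at 100 ng/ml for 13 days, so that HRASV12 was induced, and held 666 cells. The other came from untreated cells that carried the same construct, uninduced, also at day 13, and held 956 cells. With 1 library per condition there was no replicate and no test. Every interval below, at the 95% level, covers counting error only or, for shares of cells, the draw of cells taken as independent. The effects of doxycycline itself, of HRASV12 and of the separate preparation of each library cannot be told apart.

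Actin is the protein of the thin filaments that shape the cell and its cortex, and its monomers and filaments exchange continuously. Beta-thymosins bind monomers and hold them out of filaments, profilin delivers monomers to growing ends, and cofilin severs older filaments. ACTB and ACTG1 are the cytoplasmic actins of nearly every cell, ACTA2 is the actin of smooth muscle and of contractile fibroblasts, TAGLN is a filament-binding protein known from smooth muscle, and TAGLN2 is its broadly expressed relative. Many genes of this system are controlled by the serum response factor SRF, whose cofactors, the MRTF proteins, are themselves held by actin monomers.

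The induced library had 80359736 counts with a median of 111582 per cell, and the control library had 95350640 counts with a median of 85821 per cell. HRAS, summed over whatever HRAS sequence the authors' index held, stood at 161 CPM (counts divided by the library total and scaled to 1000000) in induced cells and 109 CPM in control cells, a ratio of 1.47 (1.43 to 1.51), and whether the construct's transcripts were among these counts was not tested. Cells scored as G1 made up 57.1% of induced and 19.98% of control cells. The mitochondrial share of counts had a median of 11.1% in induced cells, against 13.2% in control cells. Its 5th percentile was 1.44% in induced cells, against 8.52% in control cells. Of 12 measured adrenergic neuroblastoma markers, 0 differed upward by 1.5-fold and 3 downward. Of the 9017 genes at 10 CPM in either library, 10.9% differed upward and 8.84% downward by that fold. The adrenergic list summed to 3697 CPM in induced and 4318 CPM in control cells. Of the defining markers, TH, which encodes tyrosine hydroxylase, was low, at 1.14 CPM in induced and 3.62 CPM in control cells. Values are therefore given also within phases and within cells that passed a limit on mitochondrial share and MALAT1 (both at or above the control 5th percentile). MALAT1 is a nuclear RNA, and 406 induced and 871 control cells passed this limit.

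Together the 10 genes took 1.78% of all counts in induced cells and 0.766% in control cells, a ratio of 2.32. Of the 10, 9 reached 10 CPM in either library. Of these 9, 8 had a ratio of 1.5 or more and 0 were lower by that fold in induced cells, where 10.9% of the 9017 genes at 10 CPM were higher and 8.84% lower by that fold. Of the same 9, 6 were at least 2-fold higher, against 4.41% of all measured genes. ACTA2 and TAGLN were under 10 CPM in control cells, so they could enter these counts only as higher. PFN1, with a ratio of 1.71, lay just inside the 1.5-fold limit and CFL1, with 1.44, just outside it. The rule for choosing the genes used this contrast, so these counts support nothing further. With the limit on mitochondrial share and MALAT1, 8 reached 10 CPM and 6 were at least 1.5-fold higher, since PFN1 came to a ratio of 1.36 and TAGLN no longer reached 10 CPM.

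**Figure D1:**
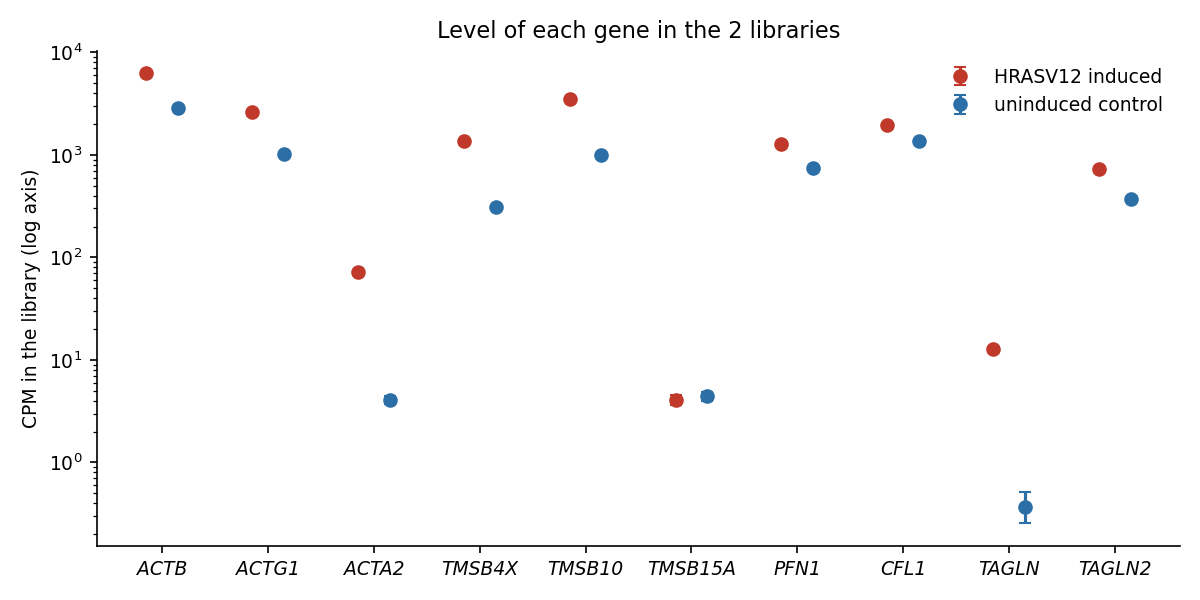
Level of each of the 10 genes as CPM of its library on a log axis, in HRASV12-induced cells (red, left of each pair) and uninduced control cells (blue), with 95% Poisson intervals that are mostly smaller than the points. All genes but TMSB15A lie higher in induced cells, from a ratio of 1.44 for CFL1 to 34.6 for TAGLN.

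Promoter windows of 2 actins are shown because SRF is known to act on actin genes through a short motif and because ACTA2 had the largest ratio among the actins. The SRF motif, the CArG box, was searched as CCNNNNNNGG with A or T at all 6 central letters, or at 5 or more of them; it reads the same on both strands. The windows are the 250 bases before the annotated start in RefSeq on GRCh38.p14, written 5′ to 3′ on the gene's strand with CArG-type matches in capitals. Entries were found for 8 of the 10 genes. ACTB and TAGLN had none, so their promoters were not searched. The windows are chr17:81512800-81513049 (minus strand) for ACTG1 and chr10:88952774-88953023 (minus strand) for the second listed start of ACTA2. The window of TMSB10, which is shown as an abundant gene with no match, is chr2:84905406-84905655 (plus strand).
ACTG1: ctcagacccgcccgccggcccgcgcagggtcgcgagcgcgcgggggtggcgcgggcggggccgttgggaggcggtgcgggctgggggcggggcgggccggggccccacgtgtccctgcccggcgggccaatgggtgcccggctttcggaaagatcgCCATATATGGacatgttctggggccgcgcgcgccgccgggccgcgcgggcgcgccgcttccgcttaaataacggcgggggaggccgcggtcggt
ACTA2: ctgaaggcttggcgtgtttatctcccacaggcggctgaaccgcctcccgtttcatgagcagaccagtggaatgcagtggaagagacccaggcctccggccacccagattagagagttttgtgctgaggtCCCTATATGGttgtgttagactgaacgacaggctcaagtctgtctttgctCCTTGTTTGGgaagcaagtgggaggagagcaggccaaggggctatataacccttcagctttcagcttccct
TMSB10: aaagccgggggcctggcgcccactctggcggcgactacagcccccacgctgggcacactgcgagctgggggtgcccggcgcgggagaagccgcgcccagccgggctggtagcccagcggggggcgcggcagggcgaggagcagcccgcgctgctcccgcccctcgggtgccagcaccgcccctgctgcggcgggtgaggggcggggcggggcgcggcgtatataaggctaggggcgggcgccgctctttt

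ACTG1 carried CCATATATGG at −94 to −85 from its start, a match at all 6 central letters, which 1.16% of the 35116 promoters of this length held. ACTA2 carried 2 matches at 5 of 6 letters, CCCTATATGG at −121 to −112 and CCTTGTTTGG at −71 to −62, and 7.04% of all promoters held a match at 5 or 6 letters. The other promoter windows searched, those of the first ACTA2 start, TMSB4X, TMSB10, TMSB15A, PFN1, CFL1 and 3 starts of TAGLN2, held no match in these bases. ACTA2 and TMSB10 each held TATATA close to the start, at −29 to −24 and −32 to −27; 3.73% of promoters held these letters anywhere in the window. These letters describe the windows and say nothing of what bound them.

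ACTB, the cytoplasmic beta-actin, had 500720 counts or 6231 CPM in induced cells, and 270991 counts or 2842 CPM in control cells, a ratio of 2.19 (2.18 to 2.20). In the induced library 8 genes of the table had more counts than ACTB, and in the control library 36 had. ACTG1, the cytoplasmic gamma-actin, stood at 2641 CPM in induced and 1023 CPM in control cells, a ratio of 2.58 (2.56 to 2.60). Both cytoplasmic actins were thus more than 2-fold higher, and ACTG1 more so than ACTB in the libraries as a whole; in cells scored as G1 the order was turned, with 2.18 for ACTG1 and 2.34 for ACTB. ACTG1 made up 29.8% of the counts of the pair in induced cells (29.7 to 29.9) and 26.5% in control cells (26.3 to 26.6), and the median over single cells was 29.1% in induced and 25.1% in control cells.

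ACTA2, smooth muscle alpha-actin, had 5724 counts in induced and 388 in control cells. These are 71.2 CPM in induced and 4.07 CPM in control cells, a ratio of 17.5 (15.8 to 19.5). ACTA2 was nevertheless a small part of the actin pool, at 0.796% of the counts of the 3 actins in induced cells and 0.105% in control cells. ACTG2, the enteric smooth muscle actin, which is no member and was named after its values were seen, showed the same shape at 9.98 CPM in induced and 0.304 CPM in control cells. ACTC1, the cardiac actin, was low in both, at 0.448 CPM in induced and 0.304 CPM in control cells, and ACTA1, the skeletal actin, at 0.162 CPM in induced and 0.283 CPM in control cells. Of the 31-base words in the last 400 bases of a transcript, 5.14% of those of ACTB, 2.43% of those of ACTA2 and 1.62% of those of ACTG1 occurred in other genes.

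Among the thymosins, TMSB4X stood at 1362 CPM in induced cells and 310 CPM in control cells, a ratio of 4.39 (4.34 to 4.45). TMSB10 stood at 3498 CPM in induced and 1003 CPM in control cells, a ratio of 3.49 (3.46 to 3.52). These monomer-binding genes showed larger ratios than the cytoplasmic actins whose protein they bind. TMSB4X made up 28.0% of the counts of the 2 genes in induced cells and 23.6% in control cells. TMSB15A, a thymosin known from neural and tumour cells, stood apart: it had 329 counts or 4.09 CPM in induced and 420 counts or 4.40 CPM in control cells, with a ratio of 0.929 whose interval, 0.802 to 1.08, included 1. TMSB15A was 0.0842% of the counts of the 3 thymosins in induced cells and 0.334% in control cells, since the other 2 were so much higher in induced cells. The 3' ends of TMSB4X and PFN1 share 38.1% and 31.1% of their 31-base words with other genes, mostly their processed pseudogenes TMSB4XP4 and PFN1P1, so their absolute levels depend on how the authors' pipeline treated shared reads; the pseudogene rows in the table held at most 0.443% of a member's counts in induced and 1.03% in control cells.

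PFN1, the main profilin, stood at 1263 CPM in induced and 738 CPM in control cells, a ratio of 1.71 (1.70 to 1.73). CFL1, the main non-muscle cofilin, stood at 1964 CPM in induced and 1366 CPM in control cells, a ratio of 1.44 (1.43 to 1.45). These 2 regulators of turnover had the smallest ratios of the 9 measured genes. PFN1 moved with the marks of cell quality. It stood at 1607 CPM in the 260 induced cells below the limit on mitochondrial share or MALAT1 and at 968 CPM in the 406 induced cells that passed it. In control cells it stood at 967 CPM in the 85 cells below the limit and 710 CPM in the 871 that passed it. Other members moved too. Among cells that passed the limit the log2 ratio was 0.45 for PFN1, against 0.77 over all cells. It was 1.49 against 1.80 for TMSB10, 1.93 against 2.13 for TMSB4X and 0.77 against 0.96 for TAGLN2. TAGLN gave 2.70 against 3.32, CFL1 0.43 against 0.52 and TMSB15A −0.30 against −0.09. ACTB and ACTG1 moved less, and ACTA2 rose to 4.06 from 3.83. The part of cell quality in these ratios was not tested.

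TAGLN2 stood at 730 CPM in induced and 374 CPM in control cells, a ratio of 1.95 (1.93 to 1.98). TAGLN had 1020 counts or 12.7 CPM in induced and 35 counts or 0.367 CPM in control cells, a ratio of 34.6 (24.7 to 49.9). A single control cell held 24 of those 35 counts, together with 48 ACTA2 counts. Without that cell the control level was 0.115 CPM and the ratio 110 (61.2 to 221), so the size of the TAGLN ratio hangs on 1 cell, while its direction was the same. TAGLN made up 1.71% of the counts of the 2 transgelins in induced cells and 0.0980% in control cells.

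Single cells were compared after every cell had been thinned at random to 53000 counts, which left 562 induced and 766 control cells; 104 induced and 190 control cells with fewer counts were left out. The counts of the 10 genes summed per cell had a 5th percentile, median and 95th percentile of 354, 897.5 and 1611 in induced cells and 260, 390 and 618 in control cells. The sum lay above the control 95th percentile in 76.9% of induced cells. The actin difference was therefore spread over most of the induced cells rather than held by a few.

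ACTB had 128, 320 and 636 counts per cell at those 3 percentiles in induced cells, and 90, 146 and 243 in control cells. It was above the control 95th percentile in 69.0% of induced cells. ACTG1 had a median of 130 in induced and 49 in control cells and lay above the control 95th percentile in 66.4% of induced cells. TMSB10 had a median of 162.5 in induced and 42 in control cells, with 66.9% of induced cells above the control 95th percentile. For these 3 genes most induced cells were thus above the range that holds 95% of control cells.

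TMSB4X was the most uneven of the abundant genes. Its 5th percentile, median and 95th percentile were 4, 50 and 207 in induced cells and 2, 11 and 47 in control cells, and 52.3% of induced cells were above the control 95th percentile. The remaining abundant genes overlapped more: CFL1 had medians of 96.5 in induced and 74 in control cells with 41.3% of induced cells above the control 95th percentile. For PFN1 the medians were 55 in induced and 37 in control cells, with 38.3% above, and for TAGLN2 they were 36 in induced and 18 in control cells, with 33.5% above.

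The 7 abundant genes often exceeded the control range together. At least 4 of the 7 were above their control 95th percentiles in 316 of 562 induced cells, or 56.2% (52.0 to 60.4), and in 11 of 766 control cells, or 1.44% (0.719 to 2.55). All 7 were above in 66 induced cells and in 0 control cells, and none of the 7 in 77 induced and 605 control cells. The 77 cells are 13.7% of the induced cells, which for these genes were inside the control range; whether they lacked HRASV12 was not tested.

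**Figure D2:**
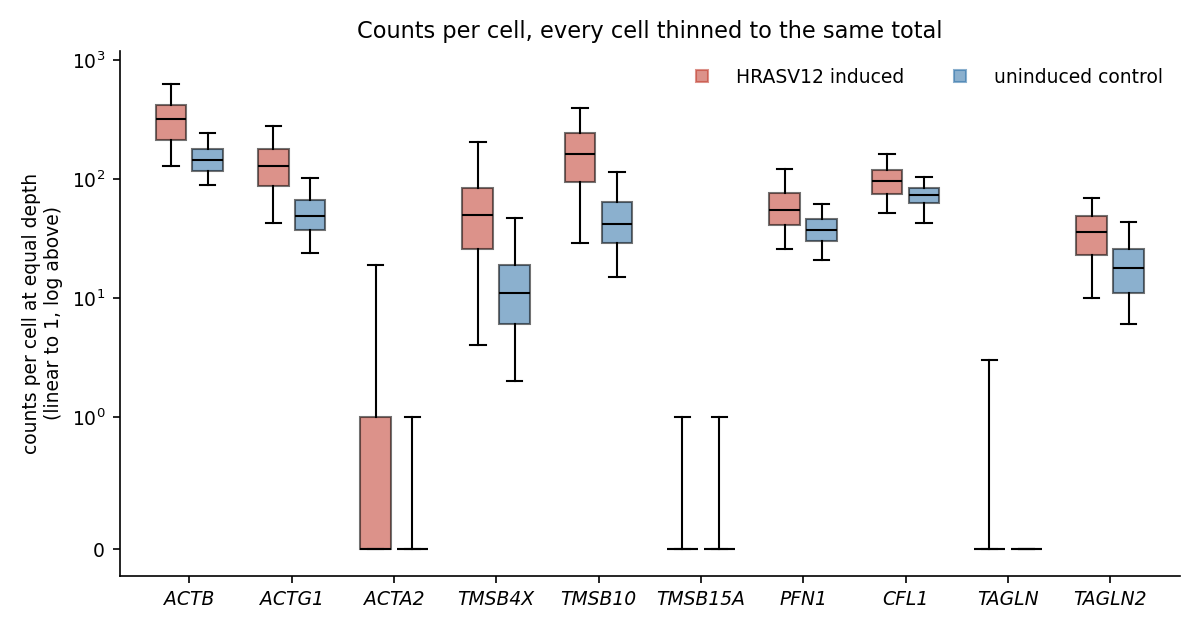
Counts per cell of each gene after thinning every cell to the same total, in 562 induced cells (red, left of each pair) and 766 control cells (blue). Boxes span the 25th to 75th percentile with the median as a line, whiskers reach the 5th and 95th percentiles, and the axis is linear up to 1 and logarithmic above. The ACTB box of induced cells lies above most control cells, while ACTA2, TAGLN and TMSB15A have medians of 0 in both libraries.

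ACTA2 and TAGLN behaved differently from the abundant genes and were held by a minority of cells. At equal depth ACTA2 was detected in 38.1% of induced and 7.70% of control cells, and 10 or more counts were found in 10.1% of induced and 0.653% of control cells. The tenth of induced cells richest in ACTA2 held 82.6% of its counts in all induced cells, and 20 cells held 50% of them. In the control library 5 cells held 50% of the ACTA2 counts, and a single cell held 15.2%. By contrast, 50% of the ACTB counts took 169 of the 666 induced cells and 288 of the 956 control cells. TAGLN was detected in 11.4% of induced and 0.522% of control cells at equal depth. TMSB15A was detected in 15.1% of cells of each library. No cell type known to lack these genes was present to measure free RNA, and the shares with 10 or more counts are given for that reason.

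ACTA2 and TAGLN tended to occur in the same induced cells. TAGLN was found in 55 of the 95 induced cells with at least 10 ACTA2 counts, or 57.9% (47.3 to 68.0), and in 20 of the 350 induced cells with no ACTA2 count, or 5.71% (3.53 to 8.69). The cells with at least 10 ACTA2 counts were also deeper, with a median of 135311 counts, against 91233 in those with none. In the control library 7 cells had at least 10 ACTA2 counts, and 2 of them had TAGLN.

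In induced cells the abundant genes were also higher where ACTA2 was high. ACTB stood at 7741 CPM in induced cells with at least 10 ACTA2 counts and 5650 CPM in induced cells with none, and TMSB4X at 2318 CPM in those with at least 10 and 995 CPM in those with none. VIM, the intermediate filament of mesenchymal cells, followed with 2600 CPM in induced cells with at least 10 ACTA2 counts and 1125 CPM in those with none. HRAS was 164 CPM with at least 10 ACTA2 counts and 155 CPM with none, a small difference beside the others. In control cells with at least 10 ACTA2 counts VIM stood at 2865 CPM, but these were 7 cells. The median MALAT1 level was 531 CPM in the 95 induced cells with at least 10 ACTA2 counts and 2092 CPM over all induced cells, and its part in these differences was not tested.

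Cells without any ACTA2 count still differed between the libraries in the other genes. In these 350 induced and 833 control cells the ratio was 2.01 for ACTB, 2.99 for TMSB10 and 3.37 for TMSB4X. In the cells with at least 10 ACTA2 counts, ACTB stood at 7741 CPM in 95 induced and 3128 CPM in 7 control cells, and TMSB10 at 4715 CPM in induced and 2317 CPM in control cells. These 2 sets of cells also differed in other markers. The fibroblast list summed to 532 CPM in those 95 induced cells and to 828 CPM in those 7 control cells, with COL1A1 at 21.3 CPM in induced and 157 CPM in control cells and COL3A1, another fibrillar collagen, at 15.3 CPM in induced and 140 CPM in control cells. The endothelial list summed to 142 CPM in induced and 347 CPM in control cells, and the adrenergic list to 2783 CPM in induced and 1743 CPM in control cells. The median MALAT1 level was 531 CPM in induced and 6674 CPM in control cells, and the part of these differences in the actin and thymosin levels was not tested.

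**Figure D3:**
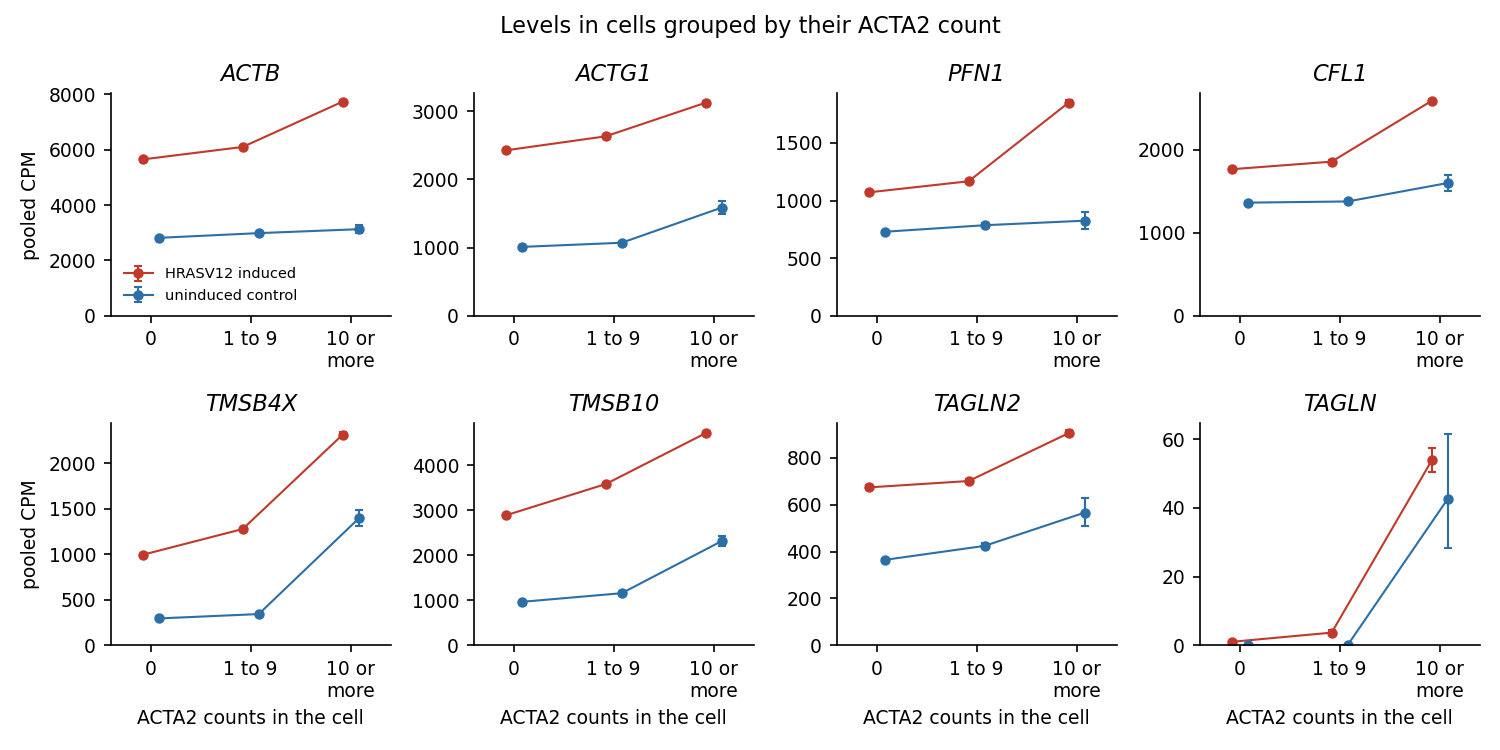
Pooled CPM of 8 genes in cells with 0, 1 to 9, or 10 or more ACTA2 counts, for induced cells (red) and control cells (blue), with 95% Poisson intervals. The 3 ranges hold 350, 221 and 95 induced cells and 833, 116 and 7 control cells. ACTB is higher in induced cells in every range, and TAGLN is near 0 in both libraries except where ACTA2 has 10 or more counts.

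Markers of other cell types were read in the same cells, because ACTA2 and TAGLN are also genes of smooth muscle, pericytes and fibroblasts. The smooth muscle and pericyte list summed to 3875 CPM in induced and 2918 CPM in control cells, nearly all of it RGS5, a regulator of G-protein signalling, at 3517 CPM in induced and 2554 CPM in control cells, and SYNPO2, an actin-bundling protein, at 275 CPM in induced and 263 CPM in control cells. Without RGS5, SYNPO2 and KCNJ8, a potassium channel, the list summed to 38.6 CPM in induced and 39.2 CPM in control cells. Of its 4 measured genes 0 were higher by 1.5-fold, where 10.9% of all measured genes were, and 1, PDGFRB, was lower, where 8.84% were. PDGFRB stood at 6.46 CPM in induced and 16.3 CPM in control cells. With 10 CPM only in control cells, it could enter this count only as lower. ACTG2, the gene of this list with the values given above, fell just short of 10 CPM and is outside this count with its ratio of 32.8, as is CNN1, at 5.77 CPM in induced and 3.00 CPM in control cells. MYH11, the myosin that defines mature smooth muscle, was at 1.83 CPM and the muscle filament gene DES at 1.71 CPM in the induced cells with at least 10 ACTA2 counts. Their levels in induced cells with none were 4.26 and 0.989 CPM. Other genes of the list were higher in the induced cells with at least 10 ACTA2 counts: ACTG2 was at 40.4 CPM there and 1.35 CPM with none, and CNN1, a calponin of smooth muscle, at 12.5 CPM there and 3.46 CPM with none. SMTN, a smooth muscle filament protein, was at 11.7 CPM there and 6.59 CPM with none, NOTCH3 at 5.19 and 1.59 CPM, and LMOD1, a muscle filament nucleator, at 1.28 and 0.137 CPM. The list was thus mixed in these cells, with MYH11 lower and ACTG2 and CNN1 higher.

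Fibroblast markers summed to 364 CPM in induced and 203 CPM in control cells, and 2 of 3 measured genes, LUM and THY1, were at least 1.5-fold higher. Among the induced cells, LUM, a matrix proteoglycan, stood at 171 CPM with at least 10 ACTA2 counts and 27.5 CPM with none, and COL1A1, a fibrillar collagen, at 21.3 CPM with at least 10 and 0.907 CPM with none. COL1A2, its partner chain, was at 0.428 CPM with at least 10 and 1.02 CPM with none. Endothelial markers summed to 97.0 CPM in induced and 109 CPM in control cells, a sum carried by EGFL7, a secreted protein of vessels, at 53.4 CPM in induced and 96.4 CPM in control cells. Beside the fibroblast and endothelial counts, 10.9% of all measured genes were higher and 8.84% lower by 1.5-fold. Of 3 measured endothelial genes 2 were higher by 1.5-fold and 1, EGFL7, was lower. The higher ones were EMCN, at 11.4 CPM in induced and 2.03 CPM in control cells, and ESAM, at 10.7 CPM in induced and 3.22 CPM in control cells. EMCN and ESAM reached 10 CPM only in induced cells, so they could enter this count only as higher. Below 10 CPM, FLT1 stood at 7.14 CPM in induced and 1.30 CPM in control cells. The 34 induced cells highest in that list had 260 CPM of ACTA2 and 4078 CPM of VIM, and without the 5% of cells highest in it ACTA2 stood at 64.1 CPM in 632 induced and 3.81 CPM in 908 control cells, a ratio of 16.8. Immune markers summed to 2.09 CPM in induced and 1.88 CPM in control cells. Adrenergic markers summed to 2783 CPM in induced cells with at least 10 ACTA2 counts and 3983 CPM in induced cells with none. The part of these marker levels in the ACTA2 and TAGLN values was not tested.

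The libraries differed in cell cycle. Of 39 measured S phase genes 0 were higher by 1.5-fold and 33 lower in induced cells. Of 54 measured G2 and M phase genes 0 were higher and 45 lower, where 10.9% of all measured genes were higher and 8.84% lower. Comparing cells of the same scored phase left the abundant genes higher in induced cells. In G1 the ratio was 2.34 for ACTB, 2.18 for ACTG1, 3.77 for TMSB4X and 2.78 for TMSB10. In S phase, with 67 induced and 246 control cells, it was 1.65 for ACTB, 1.82 for ACTG1, 2.89 for TMSB4X and 2.27 for TMSB10. The cycle-matched ratios were thus lowest in S phase for these 4 genes. In S phase PFN1 came to 1.24 and CFL1 to 1.17, both under the 1.5-fold limit, while in G2 and M phase they came to 1.82 and 1.504.

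For ACTA2 the ratio differed widely between phases, mainly because its control level did. It stood at 89.1 CPM in induced and 17.5 CPM in control cells scored as G1, a ratio of 5.08 (4.47 to 5.78). In G2 and M phase it stood at 53.4 CPM in induced and 1.66 CPM in control cells, a ratio of 32.2 (26.2 to 39.9). Of the 7 control cells with at least 10 ACTA2 counts, 5 were scored as G1. TMSB15A gave a ratio of 1.07 (0.711 to 1.65) in G1, 1.24 (0.828 to 1.81) in S and 1.24 (1.02 to 1.49) in G2 and M phase, above 1 in each phase although the libraries as a whole gave 0.929. In induced cells TMSB15A stood at 2.35 CPM in G1 and 6.07 CPM in G2 and M phase, and in control cells at 2.19 CPM in G1 and 4.91 CPM in G2 and M phase.

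**Figure D4:**
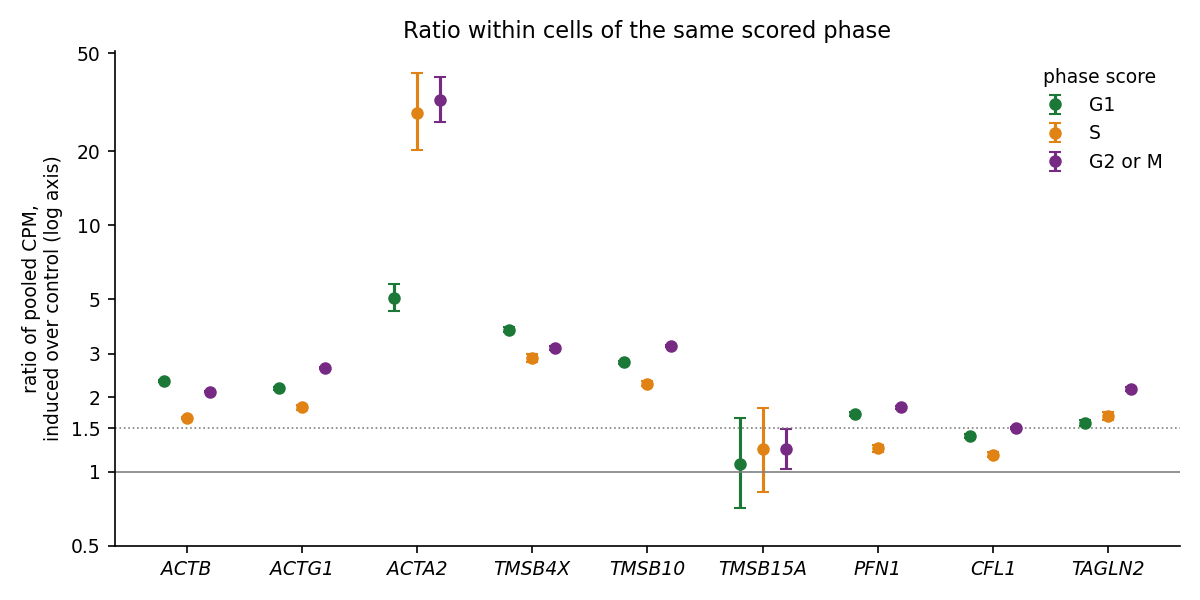
Ratio of pooled CPM, induced over control on a log axis, for 9 of the genes in cells scored as G1 (green), S (orange) and G2 or M (purple), with 95% intervals from counting error; the solid line marks equal levels and the dotted line 1.5-fold. TAGLN is left out because its few control counts give no useful ratio per phase. ACTA2 has its lowest ratio in G1, 5.08, and ACTB, ACTG1, TMSB4X and TMSB10 theirs in S phase.

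Depth and HRAS were read in the same way. Each library was divided into 4 equal groups of cells by total counts, and over these the ACTB ratio was 2.16, 2.13, 2.09 and 2.32 by rising depth and the TMSB10 ratio 3.02, 3.26, 3.70 and 3.54. PFN1 gave 1.54, 1.38, 1.58 and 1.95, so its ratio was largest among the deepest cells. ACTA2 gave 52.9, 7.79, 23.8 and 37.8, where the low value falls in the control group of cells with 14.3 CPM. Across 4 equal groups of induced cells by rising HRAS, TMSB10 stood at 2194, 2877, 3960 and 4569 CPM and ACTB at 4671, 6115, 6694 and 6945 CPM. ACTA2 showed no such order, at 43.5, 84.2, 76.7 and 71.1 CPM. Over the same HRAS limits in control cells ACTB stood at 2816, 2855, 2872 and 2813 CPM.

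Cells were also divided by VIM. Of the induced cells 371, and of the control cells 48, had more VIM than the control 95th percentile. Among these, ACTA2 stood at 115 CPM in induced and 51.5 CPM in control cells, and TAGLN2 at 826 CPM in induced and 698 CPM in control cells. In cells at or below that limit, 295 induced and 908 control, ACTA2 stood at 9.07 CPM in induced and 1.81 CPM in control cells. ACTB in these cells stood at 4654 CPM in induced and 2808 CPM in control cells, a ratio of 1.66, and TMSB10 had a ratio of 2.52. High VIM and high ACTA2 thus went together in both libraries, while ACTB and TMSB10 were higher in induced cells on both sides of the VIM limit.

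Over cells at equal depth the members varied together more closely in the induced library. Spearman's rho between ACTB and ACTG1 was 0.80 over 562 induced cells and 0.55 over 766 control cells, and between TMSB4X and TMSB10 0.71 in induced and 0.47 in control cells. Over the 21 pairs of the 7 abundant genes the median rho was 0.46 in induced and 0.25 in control cells. The lowest and highest pairs had 0.27 and 0.80 in induced cells, and 0.09 and 0.55 in control cells. TMSB15A had rho between −0.10 and 0.06 with every other member in induced cells. Thinning made the total counts equal but not the counts of these genes, which were lower in control cells. The median per cell was 50 in induced and 11 in control cells for TMSB4X, and 162.5 and 42 for TMSB10. Counting noise weighs more at lower counts, and its part in the lower rho of control cells was not tested. The cells of a library share its preparation and phase mix, and these values describe the libraries without a test.

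**Figure D5:**
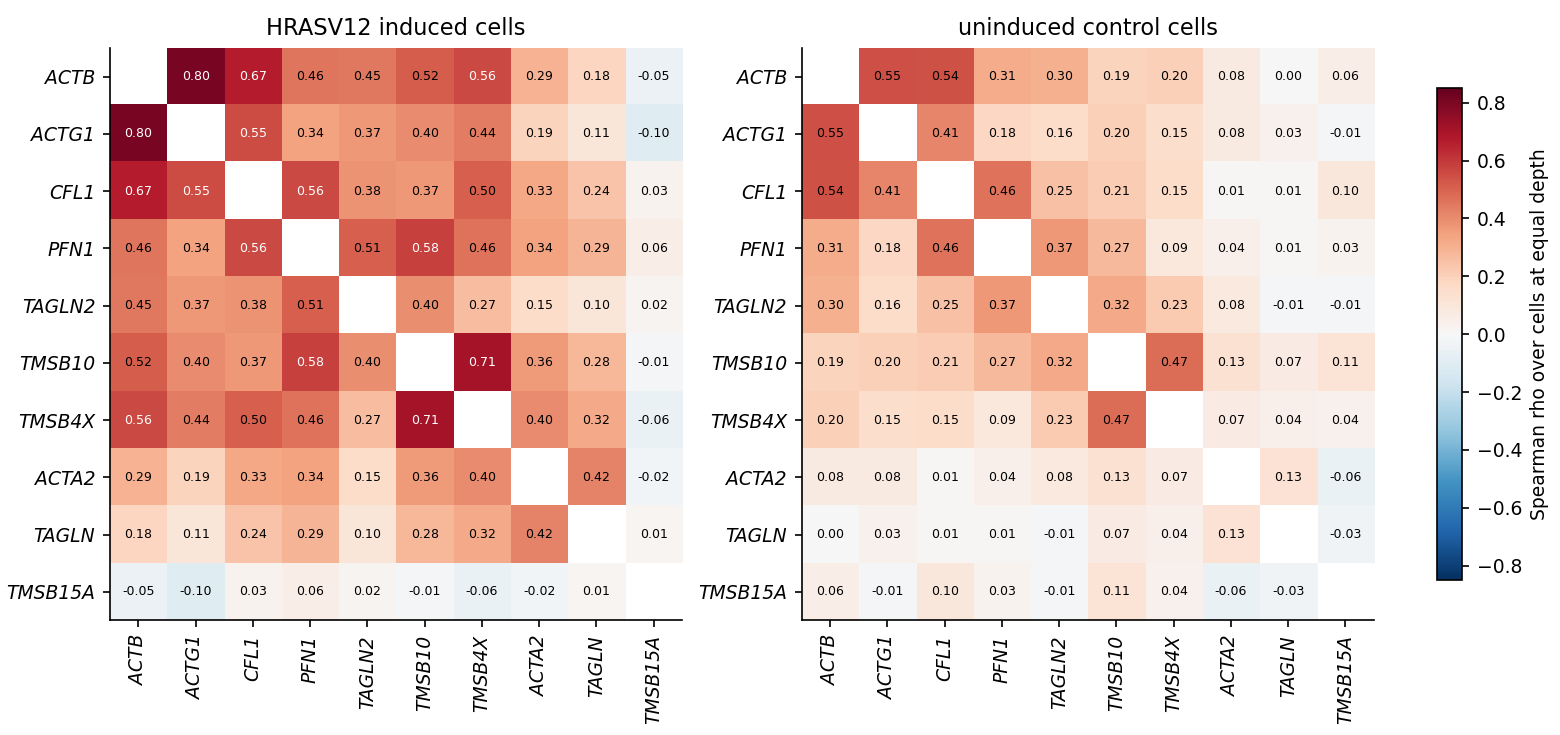
Spearman's rho between the 10 genes over single cells thinned to equal depth, in 562 induced cells (left) and 766 control cells (right); rows and columns are genes and the number in each square is rho. The closest pairs in both libraries are ACTB with ACTG1, ACTB with CFL1 and TMSB4X with TMSB10, with 0.80 for ACTB and ACTG1 in induced cells. CFL1 is slightly closer to PFN1 than to ACTG1, with 0.56 and 0.55 in induced cells and 0.46 and 0.41 in control cells. ACTA2 stands apart from the other actins, and TMSB15A is close to 0 throughout.

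The genes most like each member were sought among 5173 genes at 25 CPM or more, by rho over the 562 thinned induced cells. ACTB was followed by ANXA2, a calcium-dependent membrane and actin-binding annexin, with 0.71, then by the myosin light chain MYL6 and the lectin LGALS1 with 0.64 each. ACTG1 was followed by ANXA2 with 0.64, the beta-tubulin TUBB2A with 0.58 and the chloride channel protein CLIC1 with 0.57. TMSB10 was followed by S100A10, the partner of ANXA2, with 0.81, by SH3BGRL3 with 0.77 and by ARPC2, a subunit of the ARP2/3 complex, with 0.73. TMSB4X was followed by MYL6 with 0.70, S100A10 with 0.69 and LGALS1 with 0.68. MYL6 was among the 3 most alike genes of 5 members and led for PFN1 and CFL1, with 0.63 for each.

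PFN1 was next most like the GTPase RHOC and SH3BGRL3, with 0.62 each, and CFL1 the myosin light chain MYL12A with 0.58 and B2M, the light chain of class I histocompatibility molecules, with 0.57. TAGLN2 was most like CLIC1 with 0.57, MLLT11 with 0.53 and the calcium-binding S100A11 with 0.52. ACTA2 was most like the protease PRSS23 with 0.47, MYL6 with 0.43 and PDLIM7, an actin-associated adaptor, with 0.42. TAGLN was most like TM4SF1 with 0.54 and ANKRD1 with 0.53. TM4SF1 itself stood at 31.4 CPM in induced and 0.703 CPM in control cells, ANKRD1 at 28.1 CPM in induced and 0.157 CPM in control cells. TMSB15A differed from all of these, being most like the histone H2AFZ with 0.31, H2AFV with 0.30 and the spindle protein SKA2 with 0.29, which are weak correlations of sparse counts.

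Genes of the wider actin system were read in the same way. Of 155 genes in 7 lists, without the members, 114 reached 10 CPM, and 32 of these were higher by 1.5-fold or more and 5 lower by that fold in induced cells, where 10.9% of all measured genes were higher and 8.84% lower. These shares are also the background for the counts of the single lists that follow. The median log2 ratio was 0.26 where all measured genes had −0.04. The members had a median of 1.37, but they had been picked on this contrast, so that value is no measure for the lists. Among the paralogs 4 of 6 measured genes were higher and 0 lower. TAGLN3, the neuronal transgelin, stood at 75.7 CPM in induced and 15.9 CPM in control cells, and CNN2, a calponin, at 11.4 CPM in induced and 4.05 CPM in control cells. CNN2 reached 10 CPM only in induced cells, so it could enter the count only as higher. CFL2, the muscle cofilin, gave 119 CPM in induced and 88.6 CPM in control cells, and CNN3 gave 85.7 CPM in induced and 116 CPM in control cells.

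Of 18 measured genes of monomer binding, severing and capping 5 were higher and 1 lower. COTL1, a filament-binding relative of cofilin, stood at 144 CPM in induced and 28.7 CPM in control cells, a ratio of 5.01 (4.81 to 5.23). WDR1, which helps cofilin take filaments apart, stood at 92.8 CPM in induced and 34.1 CPM in control cells. CORO1A, a coronin of blood cells, was lower at 6.40 CPM in induced and 10.3 CPM in control cells. It reached 10 CPM only in control cells, so it could enter the count only as lower. ADD3, an adducin, gave 28.0 CPM in induced and 37.6 CPM in control cells. CFL1 was thus higher by less than WDR1 and COTL1, the 2 genes named for the highest ratios of this list. The median log2 ratio of the list was 0.22, below the 0.52 of CFL1.

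The list of the ARP2/3 complex, which starts branched filaments, holds its subunits and their activators. Of 21 measured genes 5 were higher and 0 lower, and all 5 were subunits of the complex. ARPC2 stood at 1163 CPM in induced and 608 CPM in control cells, ARPC5 at 333 CPM in induced and 187 CPM in control cells, and ARPC1B at 82.5 CPM in induced and 43.3 CPM in control cells. ACTR2, another subunit, had a ratio of 0.997 and ARPC1A one of 1.03. Of the measured activators none was past the limit in either direction, and the lowest ratios were 0.805 for WASF3 and 0.718 for CYFIP1, and the median log2 ratio of the list was 0.04.

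Of 10 measured formins and other nucleators 2 were higher and 1 lower, near the 10.9% and 8.84% of all measured genes. VASP, which speeds growth at filament ends, stood at 64.98 CPM in induced and 34.7 CPM in control cells, and DAAM1, a formin, at 26.6 CPM in induced and 15.01 CPM in control cells. DIAPH3 was lower at 19.9 CPM in induced and 34.8 CPM in control cells, and DIAPH1 gave 32.2 CPM in induced and 47.1 CPM in control cells, so the formins named here went both ways. Of 22 measured crosslinkers and bundlers 4 were higher and 1 lower, beside the same 10.9% and 8.84%. LCP1, a plastin, had a ratio of 2.70, while PLS1, another plastin, had 0.542 and RDX, a link between filaments and the membrane, 0.756.

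Of 21 measured small GTPases, their effectors and kinases upstream of cofilin 4 were higher and 0 lower. RHOC stood at 391 CPM in induced and 94.97 CPM in control cells, a ratio of 4.12 (4.02 to 4.21). CDC42EP1, an effector of CDC42, stood at 23.8 CPM in induced and 7.49 CPM in control cells, so it reached 10 CPM only in induced cells. The kinases PAK4 and ROCK2 had ratios of 0.709 and 0.758. RHOC had the highest ratio of its list, whose median log2 ratio was 0.32.

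SRF, MRTF factors and their targets held the largest share of higher genes after the paralogs, 9 of 18 measured, with 2 lower and a median log2 ratio of 0.64. The list shares CNN1 and CNN2 with the paralogs, of which CNN2 reached 10 CPM. ZYX, a protein of focal adhesions, stood at 68.8 CPM in induced and 15.1 CPM in control cells, a ratio of 4.57 (4.31 to 4.84). CCN2, a secreted matrix protein, stood at 10.1 CPM in induced and 0.0629 CPM in control cells. The control value rests on 6 counts. CCN2 and CNN2 reached 10 CPM only in induced cells, so they could enter the count of this list only as higher. The 2 lower genes were the immediate early genes FOS, at 41.9 CPM in induced and 158 CPM in control cells, and EGR1, at 74.6 CPM in induced and 146 CPM in control cells. SRF itself had a ratio of 1.11, MRTFA of 1.11 and MRTFB of 0.694, so the mRNAs of the factors did not share the ratios of targets such as ZYX.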

How the data were processed

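The data were deposited counts per gene and cell for 2 libraries, prepared with 10x Chromium 3' chemistry and handled with kallisto and bustools, per the submitters' processing notes. The build, the annotation and the tools' versions are not stated in what was used here. A deposited cell table gave each cell's library, its total count, its number of detected genes and its percent of mitochondrial counts, as the authors' own values. It listed 1622 cells, all marked as singlets, with at most 19.97% mitochondrial counts. It named no barcodes; cells were joined by their order, the barcode suffix in the count table went with the same library in every cell, and column sums differed from the annotated totals by at most 192. The libraries shared 0 barcodes. Rows were looked up by symbol, and 376 rows repeated one.

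Counts were summed per library and divided by its total (CPM). A gene was measured at 10 CPM in either library; ratios are plain CPM ratios with exact conditional Poisson intervals, log2 ratios use a pseudocount of 1 CPM, and shares have Clopper-Pearson intervals. The Poisson intervals cover counting error only, and the intervals of shares of cells take cells as independent draws. A gene under 10 CPM in 1 library was measured only through the other, where it was higher. A count of 3, the floor, came to 0.0373 CPM for induced cells and 0.0315 CPM for control cells. Single cells were thinned to 53000 counts, which 80% or more of either library's cells reached. Phases were scored with scanpy 1.11.5 (Python 3.11.15). For alternative scaling, edgeR 4.0.16 (TMM) and DESeq2 1.42.0 supplied the library factors. The fold calls were run on counts simulated with known changes and counting error only. That simulation held no spread between cells or cultures, so it cannot show how the calls behave with 1 library per condition. The 31-base words were counted in GENCODE 29 transcripts, which are not the authors' annotation: of 34568 gene IDs matched without version, 19644 had the same version. Promoters came from RefSeq on GRCh38.p14.

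The members, gene lists and tests were chosen with earlier results of these data known. The genes named are the 10 members, in each list the 2 measured genes of highest log2 ratio and the 2 of lowest, the 3 genes most like each member and HRAS, with other list genes named where they complete a count or define a cell type. A few genes that this rule names are not reported here.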

Additional observations from a re-analysis of the deposited data

How the results depend on the processing

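With 1 library per condition nothing here measures the spread between cultures, and depth limits TMSB15A and, in control cells, TAGLN. The count of members at least 1.5-fold higher, 8 of 9, was 9 with the library factors of edgeR's TMM and with DESeq2 size factors, where CFL1 joined, and 6 of 8 in cells that passed the limit on mitochondrial share and MALAT1. It was 7 of 8 with a minimum of 50 CPM and without the 5% of cells highest in ACTA2, where TAGLN was under the minimum, and 8 under the other alternatives run. The count of members at least 1.5-fold lower was 0 under every alternative run. The median log2 ratio of all measured genes was 0.07 with TMM, 0.12 with DESeq2 size factors and −0.13 with totals without ribosomal protein and mitochondrial genes, against −0.04.

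Log2 ratios ranged from 1.04 to 1.29 for ACTB, 1.12 to 1.53 for ACTG1, 1.91 to 2.29 for TMSB4X, 1.47 to 1.96 for TMSB10, 0.45 to 0.93 for PFN1, 0.43 to 0.68 for CFL1 and 0.65 to 1.12 for TAGLN2. TMSB15A ranged from −0.30 to 0.07. ACTA2 ranged from 2.28, among cells scored as G1, to 4.13, without the 5% of cells highest in it. TAGLN ranged from 1.72 with a pseudocount of 5 CPM to 4.78 with one of 0.1 CPM. Of 141 log2 ratios recomputed, 80 moved beyond counting error and 0 of a called gene changed sign. Of the shares of induced cells above the control 95th percentile, 10 of 20 fell outside the Clopper-Pearson interval of the main value. Of the rho values in induced cells, 9 of 45 moved beyond a 95% limit set by the number of cells. Both limits take cells as independent draws, although the cells share 1 library.

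The count of actin pathway genes at least 1.5-fold higher, 32 of 114, ran from 23 of 74 with a minimum of 50 CPM to 48 of 153 with no filter beyond 1 count. The count at least 1.5-fold lower, 5 of 114, came to 8 of 119 with totals without ribosomal protein and mitochondrial genes, to 8 of 113 without the 5% of cells highest in the endothelial marker list, to 10 of 153 with no filter beyond 1 count and to 2 of 74 with a minimum of 50 CPM. More or fewer genes tested go with the last 2, and the cause of the others was not tested. TAGLN without the control cell richest in it, an alternative added after the data were seen, gave a log2 ratio of 3.62. No paired analysis was possible because each condition had 1 library.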
